A study of Mus musculus with 20 samples.

Results

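The genes described here encode the machinery of fatty acid beta-oxidation and of the peroxisome, 47 genes chosen by name from the 25219 genes of a mouse adipose RNA-seq table. They comprise 23 mitochondrial enzymes, 12 peroxisomal enzymes and 12 peroxins, the proteins that build peroxisomes. All 47 were found in the table and all passed the filter on low counts in every comparison, the lowest count of any of them in any library being 115.

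RNA was sequenced from inguinal white adipose tissue (iWAT) and brown adipose tissue (BAT) of male mice, 20 libraries in all and 5 for each tissue and genotype. Ai-α4KO mice carried floxed alleles of Igbp1, which encodes the PP2A-binding protein Alpha4 (α4), together with Adiponectin-CreERT2, a tamoxifen-activated recombinase driven from a promoter active in adipocytes. The Control mice, marked WT in the labels, carried the floxed alleles without the recombinase. Every mouse began tamoxifen at 2 months of age, received 5 injections of 100 mg/kg within 6 days, and gave tissue 1 week after recombination, so that the drug and the floxed alleles were shared by all groups. Cells of the tissue that do not use that promoter were not targeted, and whole tissue was sequenced. Whether an iWAT and a BAT library came from the same animal is not given, and p-values describe the spread between these libraries, which may be technical.

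Long-chain fatty acids enter mitochondria as acylcarnitines through the carnitine palmitoyltransferases, and each turn of the beta-oxidation spiral then passes through a dehydrogenase, a hydratase, a second dehydrogenase and a thiolase. Peroxisomes shorten very long-chain and branched fatty acids by a parallel set of enzymes whose first step yields hydrogen peroxide, which catalase removes. Brown adipocytes burn fatty acids for heat and hold much of this machinery, whereas white adipocytes mainly store and release them.

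Library totals ran from 24023371 to 50384446 counts. Igbp1 was 57.5, 72.5, 78.6, 68.6 and 67.6 CPM in Control iWAT against 10.5, 9.47, 10.3, 10.5 and 10.4 CPM in Ai-α4KO iWAT. In BAT it was 93.6, 104, 99.6, 96.0 and 89.2 CPM against 14.4, 14.4, 17.3, 24.5 and 13.8 CPM, so every library matched its genotype label. The summed level of 12 adipocyte markers was 35101 to 47609 CPM in Control iWAT and 12689 to 18537 CPM in Ai-α4KO iWAT, and 28528 to 30759.5 CPM in Control BAT and 13972 to 18198 CPM in Ai-α4KO BAT. Of these 12 markers, 10 were called lower in iWAT and 8 in BAT, with median log2 fold changes of -1.63 and -1.48. Fabp4 (-0.72 and -0.41) and Lep were called in neither tissue, and Plin4 (-0.96) and Retn (0.53) were not called in BAT. All 7 macrophage markers in the table were called higher in both tissues, their sum moving from 893 to 1525 CPM to 5448 to 7089.8 CPM in iWAT and from 191 to 426 CPM to 3468 to 5604 CPM in BAT. Summed endothelial markers were 363 to 485 CPM in Control iWAT, 199 to 244 CPM in Ai-α4KO iWAT, 723 to 992 CPM in Control BAT and 260.4 to 328 CPM in Ai-α4KO BAT. Skeletal muscle markers summed to 1137 to 12377 CPM in Control BAT and 16274 to 52140.1 CPM in Ai-α4KO BAT, and in iWAT they were high in Control replicate 4 (8357 CPM) and Ai-α4KO replicate 1 (6026 CPM). Brown adipocyte markers summed to 91.4 to 824 CPM in Control iWAT and 7.13 to 20 CPM in Ai-α4KO iWAT, and to 7439 to 11543 CPM in Control BAT and 1363 to 2808 CPM in Ai-α4KO BAT. Of these 5 markers, 4 fell in iWAT, but in BAT the calls were those of Ucp1 and Cidea (-2.39 and -2.65), with Dio2 (0.40), Elovl3 (0.36) and Ppargc1a (-0.15) not called. Of 5 stromal markers none was called in either tissue, with medians of 0.19 and 0.76 on the log2 scale. B cell markers were high in Control iWAT replicates 1 and 4 (453 and 183 CPM, against 12 CPM or less in every other library). In bulk tissue, fewer cells of a type and less RNA per cell cannot be told apart, and the part of these other cell types in the results below was not tested beyond the values given.

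Loss of α4 was accompanied by lower RNA for most of this machinery in both fat depots. In iWAT 33 of the 47 genes fell and 1 rose, where a call means an adjusted p below 0.01 by edgeR's quasi-likelihood test and a change of at least 2-fold. Of the 14604 genes tested in iWAT, 10.7% were called lower and 11.3% higher. In BAT 34 fell and 1 rose, against 13.3% called lower and 18.2% called higher among 14344 genes. The gene that rose in both tissues was Cpt1a. Over the 47 genes the log2 fold change had a median of -1.29 (iWAT) and -1.50 (BAT), whereas the medians over all genes tested were 0.01 and -0.03. Both tissues shared 29 of the genes that fell. Mlycd, Abcd2, Pex16 and Pex19 were called in iWAT and not in BAT, Cpt1b, Hsd17b4, Decr2, Pex10 and Pex26 in BAT and not in iWAT, and Eci2, Acox3, Acaa1a, Acaa1b, Pex2, Pex7, Pex13 and Pex14 in neither.

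The class medians followed the same order in both tissues. Among mitochondrial enzymes 20 of 23 fell in each tissue, and the class median of the log2 fold change was -1.54 (iWAT) and -2.0 (BAT). Among peroxisomal enzymes 7 of 12 fell in iWAT and 8 of 12 in BAT, with medians of -1.16 and -1.19. Among peroxins 6 of 12 fell in each tissue, with medians of -0.93 and -1.03. These medians are descriptions of 23, 12 and 12 genes and carry no test. In iWAT all 5 Ai-α4KO libraries lay below all 5 Control libraries for 42 of the 47 genes, where 21.2% of all genes tested showed that separation, and above them for 1, against 17.9%. In BAT the libraries separated downward for 44 genes, against 24.4% of all genes, and upward for 1, against 23.3%.

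**Figure D1:**
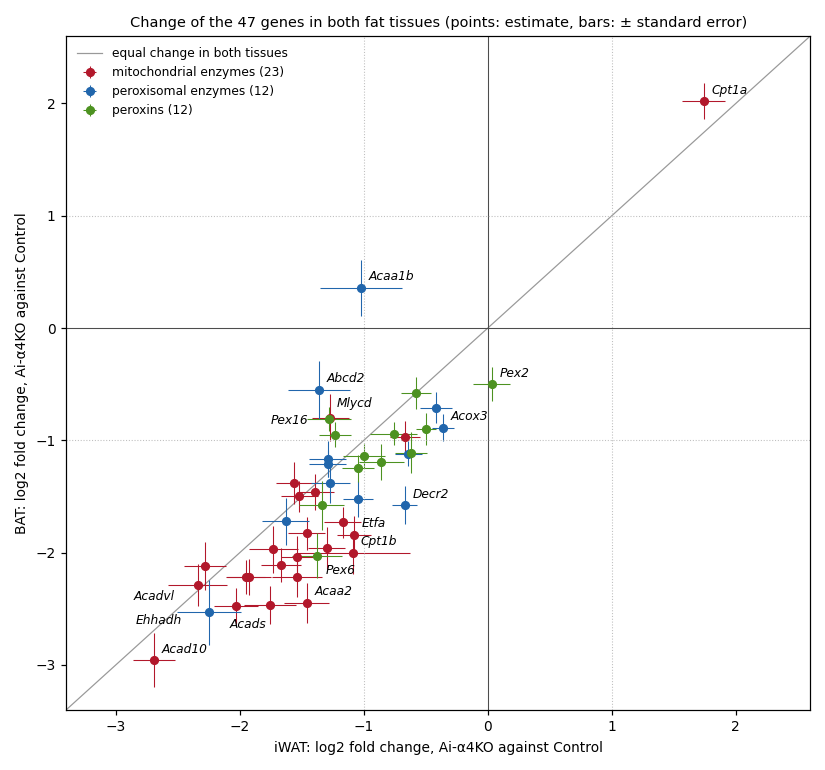
Log2 fold change of Ai-α4KO against Control for each of the 47 genes in iWAT (horizontal axis) and BAT (vertical axis), with standard errors as bars, class as colour, dotted lines at 2-fold and a grey line of equal change. Cpt1a stands alone at the upper right (1.74 and 2.02), most mitochondrial enzymes lie below -1 on both axes with Acad10 at the lower left (-2.69 and -2.96), and the peroxins reach from Pex2 (0.03 and -0.50) to Pex6 (-1.38 and -2.03).

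The carnitine palmitoyltransferase step held the one rise of the set. Cpt1a encodes the isoform of the outer membrane enzyme that dominates in liver, and Cpt1b the isoform of muscle and brown fat. Cpt1a was 66.9, 58.7, 57.7, 41.4 and 57.0 CPM in the Control iWAT libraries and 148, 128, 197, 203 and 199.6 CPM in the Ai-α4KO ones. Cpt1a in BAT was 16.6, 20.2, 18.5, 22.7 and 29.2 CPM in Control and 99.0, 94.3, 94.3, 72.4 and 73.5 CPM in Ai-α4KO libraries. All Ai-α4KO libraries lay above all Control libraries of their tissue. Cpt1a rose by a log2 fold change of 1.74 ± 0.17 (iWAT, adjusted p = 1.26e-05) and 2.02 ± 0.16 (BAT, adjusted p = 7.38e-07), which is 3.34-fold and 4.06-fold, and it was called higher under each of the alternatives tried.

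Cpt1b in BAT was 1198, 921, 1133, 1048 and 1002 CPM in Control and 200.5, 192, 243, 366 and 308 CPM in Ai-α4KO libraries, with no overlap between the groups. It fell in BAT, by a log2 fold change of -2.0 ± 0.19 (edgeR, adjusted p = 3.38e-06). The fall was -2.15 (edgeR, adjusted p = 0.000136) with the skeletal muscle marker score as a covariate. Summed muscle markers did not overlap between genotypes in BAT (1137 to 12377 CPM in Control, 16274 to 52140.1 CPM in Ai-α4KO). BAT fits with this covariate, here and for the genes below, therefore cannot separate muscle content from genotype. In iWAT Cpt1b was 41.7, 67.4, 110.5, 32.0 and 15.9 CPM in the Control iWAT libraries and 40.9, 20.2, 14.2, 17.4 and 24.7 CPM in the Ai-α4KO ones. These groups overlapped, Control replicate 3 being the highest and Control replicate 5 lying below 4 of the 5 Ai-α4KO libraries, and the log2 fold change of -1.09 ± 0.46 missed the threshold (adjusted p = 0.0631) and was -0.69 without Control replicate 3. Ucp1, the uncoupling protein of brown and beige adipocytes, was 255, 249, 322, 18.3 and 5.36 CPM in the same Control iWAT libraries, high in replicates 1 to 3 and low in 4 and 5. Its part in the spread of Cpt1b was not tested.

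Per transcript length, Cpt1a made up 46.4% ± 16.8 (SD, n = 5) of the summed Cpt1a and Cpt1b FPKM in Control iWAT, against 83.1% ± 7.72 for Ai-α4KO. In BAT the share went from 1.37% ± 0.385 to 19.2% ± 6.17. The log2 ratio of Cpt1a to Cpt1b FPKM was -0.22 ± 1.04 in Control and 2.40 ± 0.77 in Ai-α4KO iWAT (exact p = 0.0079, 0.016 after adjustment). The same ratio in BAT stood at -6.22 ± 0.41 in Control and -2.13 ± 0.61 in Ai-α4KO BAT (exact p = 0.0079, 0.016 after adjustment). These are two-sided exact permutation tests over 252 arrangements, whose smallest possible p is 0.0079, and the adjustment covers 12 such ratio tests. The sum of both isoforms was 16.2 to 40.4 FPKM in Control iWAT and 38.1 to 57.1 FPKM in Ai-α4KO iWAT, groups that overlapped, whereas in BAT it was 240.0 to 318 FPKM in Control and 83.4 to 124 FPKM in Ai-α4KO. The totals separated downward in BAT, with means of 280.2 FPKM in Control and 100.4 FPKM in Ai-α4KO. In iWAT the means were 27.3 ± 9.97 and 50.4 ± 7.40 FPKM (SD, n = 5). The iWAT overlap was that of Control replicate 3 (40.4 FPKM) with Ai-α4KO replicate 2 (38.1 FPKM). These totals were not tested.

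Cpt2, the inner membrane transferase that regenerates acyl-CoA in the matrix, was 285, 356, 419, 294 and 341 CPM in the Control iWAT libraries and 133, 116, 91.8, 124 and 87.3 CPM in the Ai-α4KO ones. Cpt2 in BAT was 665, 684, 718, 572 and 686 CPM in Control and 202, 198, 213, 259.8 and 295 CPM in Ai-α4KO libraries. Cpt2 fell in both tissues, with log2 fold changes of -1.52 ± 0.15 (iWAT, adjusted p = 1.26e-05) and -1.50 ± 0.14 (BAT, adjusted p = 3.01e-06) and an interaction of 0.04 ± 0.20 (edgeR, adjusted p = 0.9). Crat, the carnitine acetyltransferase that exchanges short acyl groups, fell with log2 fold changes of -1.56 and -1.38. Mlycd encodes malonyl-CoA decarboxylase, which removes the metabolite that inhibits the outer membrane transferases. Mlycd was 55.0, 51.2, 64.4, 49.2 and 55.9 CPM in the Control iWAT libraries and 30.7, 19.7, 18.2, 20.5 and 17.6 CPM in the Ai-α4KO ones. Mlycd in BAT was 106, 79.1, 102, 86.2 and 95.3 CPM in Control and 38.2, 36.2, 48.6, 77.4 and 66.0 CPM in Ai-α4KO libraries. The groups separated in both tissues, but Mlycd was called in iWAT alone, with log2 fold changes of -1.27 ± 0.15 (iWAT, adjusted p = 3.69e-05) and -0.80 ± 0.21 (BAT, adjusted p = 0.00534), and the difference between tissues did not pass (interaction 0.50 ± 0.26, adjusted p = 0.206).

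**Figure D2:**
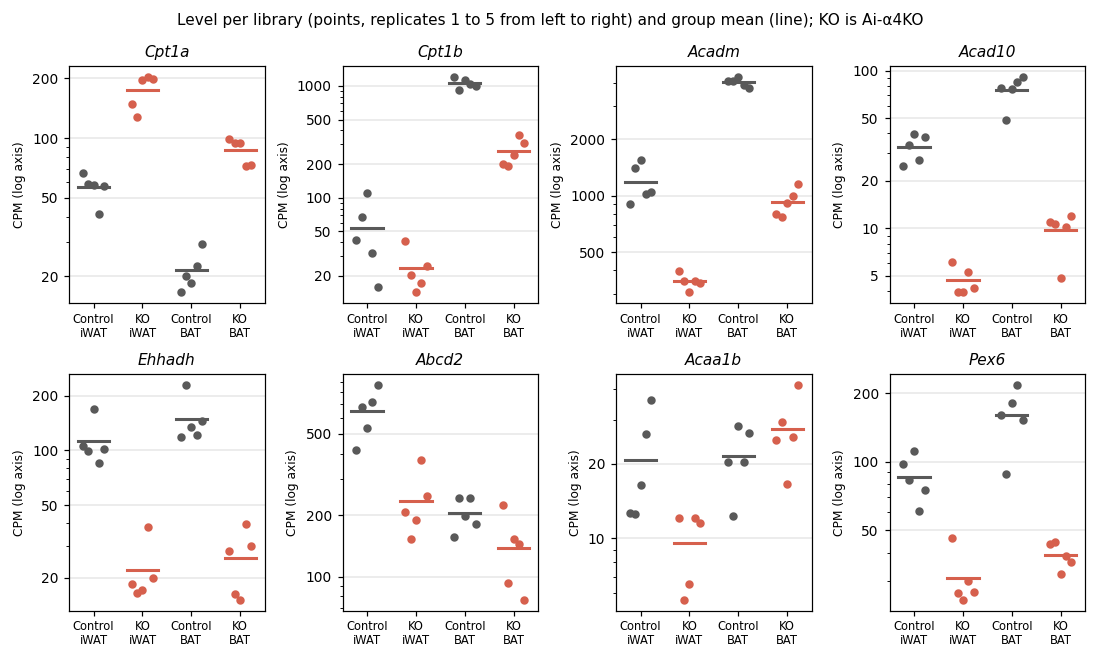
Normalised level in CPM, on a log axis, of 8 genes in the 20 libraries, with points for libraries and lines for group means, grey for Control and red for Ai-α4KO. Cpt1a is higher in all Ai-α4KO libraries of both tissues, Acadm, Acad10, Ehhadh and Pex6 are lower in all of them, and Cpt1b in iWAT and Abcd2 and Acaa1b in BAT overlap between genotypes.

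The acyl-CoA dehydrogenases open each turn of the spiral and differ in the chain length they accept. Acadvl, for very long chains, was 673, 1021, 1361, 687 and 766 CPM in the Control iWAT libraries and 246, 166, 125, 166 and 129.8 CPM in the Ai-α4KO ones. Acadvl in BAT was 4111, 3247, 4223, 3982 and 4317 CPM in Control and 642, 622, 734, 976 and 1046 CPM in Ai-α4KO libraries. Ai-α4KO levels lay under those of Control without overlap, and the log2 fold changes were -2.34 ± 0.24 (iWAT, adjusted p = 1.82e-05) and -2.29 ± 0.19 (BAT, adjusted p = 8.11e-07), or 5.05-fold and 4.91-fold lower. Acadl, for long chains, was 636, 969.6, 1005, 797 and 749 CPM in the Control iWAT libraries and 273, 248, 238, 294 and 277 CPM in the Ai-α4KO ones. Acadl in BAT was 3761, 3494, 3767, 3232 and 3511 CPM in Control and 673, 589, 884, 1021 and 1104 CPM in Ai-α4KO libraries. The groups again separated, and Acadl fell with log2 fold changes of -1.54 ± 0.13 (iWAT, adjusted p = 6.89e-06) and -2.04 ± 0.19 (BAT, adjusted p = 2.34e-06).

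Acadm, for medium chains, was 906, 1411, 1559, 1024 and 1047 CPM in the Control iWAT libraries and 397, 350.3, 304, 351 and 339.8 CPM in the Ai-α4KO ones. Acadm in BAT was 4113, 4105, 4302, 3919 and 3762 CPM in Control and 803, 767, 914, 991 and 1159 CPM in Ai-α4KO libraries. The lowest Control library held more than the highest Ai-α4KO library in each tissue, and Acadm fell with log2 fold changes of -1.67 ± 0.16 (iWAT, adjusted p = 1.01e-05) and -2.11 ± 0.15 (BAT, adjusted p = 2.88e-07). Acads, for short chains, was 244, 242, 272, 206 and 273 CPM in the Control iWAT libraries and 86.5, 53.1, 41.3, 57.7 and 45.2 CPM in the Ai-α4KO ones. Acads in BAT was 751, 537, 751, 674 and 749 CPM in Control and 112, 102, 108, 140.3 and 154 CPM in Ai-α4KO libraries. Acads fell further than Acadl and Acadm in point estimate, with log2 fold changes of -2.03 ± 0.18 (iWAT, adjusted p = 8.44e-06) and -2.48 ± 0.16 (BAT, adjusted p = 1.63e-07), although the differences among the dehydrogenases were not tested. Within Ai-α4KO iWAT, replicate 1 was the highest library for Acadvl, Acadm and Acads but not for Acadl. Replicate 1 was high in skeletal muscle markers (6026 CPM) and, with replicate 4, in adipocyte markers (18264 and 18537 CPM). Control iWAT replicate 4, also high in muscle markers (8357 CPM), was not the highest Control library for any of these genes. The part of either marker set was not tested.

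Acad10 and Acad11 are further members of the dehydrogenase family. Acad10 was 24.8, 33.6, 39.5, 27.3 and 37.9 CPM in the Control iWAT libraries and 6.10, 3.97, 3.92, 5.28 and 4.21 CPM in the Ai-α4KO ones. Acad10 in BAT was 78.0, 49.0, 76.2, 85.4 and 91.1 CPM in Control and 11.0, 10.6, 4.83, 10.2 and 11.9 CPM in Ai-α4KO libraries. This was the largest fall of the 47 genes in both tissues, with log2 fold changes of -2.69 ± 0.17 (iWAT, adjusted p = 1.95e-06) and -2.96 ± 0.24 (BAT, adjusted p = 7.43e-07), or 6.47-fold and 7.77-fold. Ai-α4KO BAT replicate 3 stood below the other libraries of its group. Acad11 fell with log2 fold changes of -2.28 ± 0.17 and -2.12 ± 0.21. The electron transfer flavoprotein carries electrons from these dehydrogenases to the respiratory chain, and its subunits Etfa and Etfb and its oxidoreductase Etfdh fell in both tissues, with log2 fold changes of -1.08, -1.54 and -1.17 in iWAT and -1.84, -2.22 and -1.73 in BAT. The iWAT call of Etfa was lost with library size alone (-0.95) and with limma on FPKM (-0.93), and that of Etfdh with limma on log2(FPKM + 1) (-1.0). The larger BAT estimates did not pass as differences between tissues (edgeR interaction, adjusted p = 0.026, 0.0954 and 0.0816).

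Hadha and Hadhb encode the alpha and beta subunits of the mitochondrial trifunctional protein, which carries out the last steps of the spiral on long chains. The genes lie head to head on chromosome 5, Hadha on the minus and Hadhb on the plus strand, and the 272 bases between their starts (chr5:30154981-30155252, GRCm38.p6, plus strand, from RefSeq) are shown because a single interval lies upstream of these paired genes. Capitals mark GGGCGG, the core of the GC box, searched on both strands.
Hadha-Hadhb interval: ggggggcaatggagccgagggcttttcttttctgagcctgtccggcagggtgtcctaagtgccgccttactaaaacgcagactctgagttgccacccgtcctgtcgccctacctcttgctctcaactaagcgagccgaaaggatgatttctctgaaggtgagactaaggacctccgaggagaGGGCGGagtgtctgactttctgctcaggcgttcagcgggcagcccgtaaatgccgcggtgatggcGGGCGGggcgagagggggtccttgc

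Hadha was 521, 764, 885, 544 and 609 CPM in the Control iWAT libraries and 251, 223, 199, 243 and 206 CPM in the Ai-α4KO ones. Hadha in BAT was 2227, 2316, 2763, 2299 and 2539 CPM in Control and 589.6, 554, 640.3, 813 and 790.2 CPM in Ai-α4KO libraries. Hadha fell with log2 fold changes of -1.46 ± 0.15 (iWAT, adjusted p = 1.93e-05) and -1.83 ± 0.15 (BAT, adjusted p = 9.68e-07). Hadhb was 866, 1572, 1789, 1078 and 944 CPM in the Control iWAT libraries and 344, 347, 331, 359 and 365 CPM in the Ai-α4KO ones. Hadhb in BAT was 6299, 6595, 6702, 5235 and 5609 CPM in Control and 1175, 991, 1742, 1879 and 1931 CPM in Ai-α4KO libraries. Hadhb fell with log2 fold changes of -1.73 ± 0.20 (iWAT, adjusted p = 3.14e-05) and -1.97 ± 0.21 (BAT, adjusted p = 7.7e-06), and for both genes the groups were apart in each tissue. Per length, the log2 ratio of Hadha to Hadhb FPKM was -1.77 ± 0.19 in Control and -1.53 ± 0.14 in Ai-α4KO iWAT (exact p = 0.071, 0.095 after adjustment). The same ratio in BAT stood at -2.21 ± 0.17 in Control and -2.04 ± 0.24 in Ai-α4KO BAT (exact p = 0.25, 0.25 after adjustment). The subunit ratio moved by 0.24 and 0.17 on the log2 scale, neither past an adjusted p of 0.05.

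The other enzymes of the spiral fell as well. Log2 fold changes in iWAT and BAT were -1.95 and -2.22 for Echs1, the short-chain enoyl-CoA hydratase. They were -1.93 and -2.22 for Hadh, the hydroxyacyl-CoA dehydrogenase. For Acaa2, the mitochondrial thiolase, they were -1.46 ± 0.18 and -2.45 ± 0.18. The Acaa2 interaction of -0.96 ± 0.24 had the largest negative estimate of the 47 genes and missed the threshold by edgeR (adjusted p = 0.0139), while DESeq2 called it. Acaa2 in iWAT was 355 to 603 CPM in Control and 113 to 185 CPM in Ai-α4KO, and in BAT 3550.5 to 4400.5 CPM in Control and 563 to 941 CPM in Ai-α4KO.

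Unsaturated chains need helper enzymes. Eci1, an enoyl-CoA isomerase, fell with log2 fold changes of -1.76 and -2.47, and Decr1, a dienoyl-CoA reductase, with -1.39 and -1.46. Acot2, a matrix acyl-CoA thioesterase, fell with -1.30 and -1.96. Eci2, a second isomerase found in both organelles, had the smallest change of the mitochondrial class in iWAT. It was 85.7, 130.4, 136, 118 and 118 CPM in the Control iWAT libraries and 74.9, 70.9, 63.1, 71.1 and 64.0 CPM in the Ai-α4KO ones. Eci2 in BAT was 239.9, 205, 233, 191 and 251 CPM in Control and 101, 91.1, 112, 144 and 119 CPM in Ai-α4KO libraries. The Eci2 groups did not overlap in either tissue, yet its log2 fold changes of -0.67 ± 0.12 (iWAT, adjusted p = 0.000608) and -0.97 ± 0.14 (BAT, adjusted p = 9.62e-05) stayed under 2-fold. Without Control BAT replicate 2, Control BAT replicate 4 or Ai-α4KO BAT replicate 4 the BAT value passed the 2-fold limit, the leave-one-out values running from -1.03 to -0.90, and it was -1.12 and called with the skeletal muscle score as a covariate.

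Upstream sequence from RefSeq, 250 bases before to 50 bases after the start, was matched for 39 of the 47 genes, without Cpt1b, Decr1, Acaa2, Crat, Hsd17b4, Abcd2, Pex2 and Pex19. Cpt1a, the gene that rose, and Acadm, which fell, are shown side by side because they moved in opposite directions and both hold AGGTCA, the core that many nuclear receptors recognise. Capitals mark AGGTCA and GGGCGG on either strand (TGACCT and CCGCCC when reversed), and each sequence is the 250 bases before the start on the gene's own strand, chr19:3323051-3323300 on the plus strand for Cpt1a and chr3:153944644-153944893 on the minus strand for Acadm (GRCm38.p6).
Cpt1a upstream: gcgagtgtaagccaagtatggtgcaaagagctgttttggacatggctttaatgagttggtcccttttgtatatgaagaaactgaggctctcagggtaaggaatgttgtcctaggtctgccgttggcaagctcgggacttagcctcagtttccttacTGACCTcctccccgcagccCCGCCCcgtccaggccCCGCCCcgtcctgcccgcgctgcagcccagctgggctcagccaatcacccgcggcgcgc
Acadm upstream: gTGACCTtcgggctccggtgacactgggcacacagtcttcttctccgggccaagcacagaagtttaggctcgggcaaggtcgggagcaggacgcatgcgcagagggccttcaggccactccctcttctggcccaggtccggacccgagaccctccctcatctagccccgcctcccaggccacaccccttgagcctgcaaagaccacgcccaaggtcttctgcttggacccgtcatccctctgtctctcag

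In the windows of 250 bases before and 50 bases after the start AGGTCA was present on either strand for 7 of the 39 genes (17.9%: Cpt1a, Acadvl, Acadm, Echs1, Scp2, Cat and Phyh) and for 18.13% of all 27025 genes with such a window. Its repeat with a single spacer, that is AGGNCA, 1 base of any kind and AGGNCA again, which can overlap it, was in none of the 39 windows and in 0.45% of all genes. GCGC, any base and then TGCGC, a motif of nuclear respiratory factors, was in 5 windows (12.8%: Etfb, Etfdh, Acad10, Abcd3 and Pex10), against 5.19% of all genes. GGGCGG was in 28 windows (71.8%), against 38.2% of all genes, and CCAAT in 17 (43.6%), against 41.06%. These shares describe letters in a short window and carry no test.

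Peroxisomal beta-oxidation begins with uptake of acyl-CoA by transporters of the ABCD family. Abcd2 was 414, 678, 535, 718 and 870.3 CPM in the Control iWAT libraries and 207, 153, 190.1, 371 and 248 CPM in the Ai-α4KO ones. Abcd2 fell in iWAT, by a log2 fold change of -1.36 ± 0.25 (adjusted p = 0.000858), with no overlap. Abcd2 in BAT was 157, 243, 197, 241 and 181 CPM in Control and 225, 92.8, 153, 144 and 76.8 CPM in Ai-α4KO libraries. Here the groups overlapped, Ai-α4KO replicate 1 lying among the Control libraries, and the log2 fold change of -0.55 ± 0.26 was not called (adjusted p = 0.0769). Abcd3 was 146, 212, 225, 179 and 183 CPM in the Control iWAT libraries and 91.1, 85.1, 73.3, 92.2 and 82.5 CPM in the Ai-α4KO ones. Abcd3 in BAT was 476, 505, 588, 372 and 527 CPM in Control and 149, 145, 158, 207 and 194 CPM in Ai-α4KO libraries. Abcd3 fell in both tissues without overlap, with log2 fold changes of -1.05 ± 0.12 (iWAT, adjusted p = 3.27e-05) and -1.52 ± 0.16 (BAT, adjusted p = 5.93e-06). The iWAT call of Abcd3 was lost with library size alone (-0.92) and with limma on FPKM (-0.89 and -0.91 at pseudocounts of 1 and 0.1). The log2 ratio of Abcd2 to Abcd3 FPKM was 1.03 ± 0.39 in Control and 0.70 ± 0.43 in Ai-α4KO iWAT (exact p = 0.25, 0.25 after adjustment). The same ratio in BAT stood at -1.98 ± 0.43 in Control and -1.09 ± 0.72 in Ai-α4KO BAT (exact p = 0.048, 0.082 after adjustment).

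The first peroxisomal step is an acyl-CoA oxidase. Acox3, the oxidase in the set, was 76.3, 73.0, 79.2, 70.9 and 88.2 CPM in the Control iWAT libraries and 55.1, 50.7, 57.6, 63.7 and 54.0 CPM in the Ai-α4KO ones. Acox3 in BAT was 71.4, 83.7, 90.1, 102 and 97.2 CPM in Control and 48.5, 52.9, 43.0, 42 and 51.7 CPM in Ai-α4KO libraries. Acox3 had the smallest change of the peroxisomal enzymes in iWAT, and its log2 fold changes of -0.36 ± 0.09 (iWAT, adjusted p = 0.00491) and -0.89 ± 0.12 (BAT, adjusted p = 3.75e-05) stayed under 2-fold although the groups did not overlap. With the skeletal muscle score as a covariate Acox3 was called lower in BAT (-1.05, edgeR adjusted p = 0.000532).

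The next steps are carried by bifunctional enzymes. Ehhadh encodes the L-bifunctional enzyme and Hsd17b4 the D-bifunctional enzyme, which handles branched and very long chains. Ehhadh was 106, 98.6, 168, 85.1 and 102 CPM in the Control iWAT libraries and 18.4, 16.4, 17.2, 38.0 and 19.8 CPM in the Ai-α4KO ones. Ehhadh in BAT was 119, 229.6, 134, 121 and 144 CPM in Control and 28.2, 16.2, 15.1, 39.5 and 29.8 CPM in Ai-α4KO libraries. Ehhadh fell most of the peroxisomal enzymes in both tissues, by 4.74-fold and 5.78-fold (log2 fold changes -2.25 ± 0.26 (iWAT, adjusted p = 4.01e-05) and -2.53 ± 0.29 (BAT, adjusted p = 1.23e-05)). Hsd17b4 was 389, 354, 404, 296 and 371 CPM in the Control iWAT libraries and 242, 199, 195, 243 and 209 CPM in the Ai-α4KO ones. Hsd17b4 in BAT was 448, 527, 499.6, 483 and 454 CPM in Control and 262, 219, 207, 205 and 210.1 CPM in Ai-α4KO libraries. Hsd17b4 separated the genotypes in both tissues and passed the 2-fold limit in BAT alone, with log2 fold changes of -0.64 ± 0.11 (iWAT, adjusted p = 0.000591) and -1.12 ± 0.11 (BAT, adjusted p = 2.9e-06) and an interaction of -0.46 ± 0.15 that was not called (adjusted p = 0.0422). The BAT call of Hsd17b4 was lost with library size alone (-0.85) and with limma on FPKM (-0.85 and -0.86).

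Within libraries Ehhadh fell relative to Hsd17b4. The log2 ratio of Ehhadh to Hsd17b4 FPKM was -1.90 ± 0.26 in Control and -3.55 ± 0.41 in Ai-α4KO iWAT (exact p = 0.0079, 0.016 after adjustment). The same ratio in BAT stood at -1.90 ± 0.32 in Control and -3.35 ± 0.61 in Ai-α4KO BAT (exact p = 0.0079, 0.016 after adjustment). All 5 Ai-α4KO ratios lay below all 5 Control ratios in each tissue, by 3.14-fold and 2.75-fold on average.

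The thiolases Acaa1a and Acaa1b are close paralogs, so their counts depend on how shared reads were divided and are uncertain. Acaa1a was 147, 113, 123, 119 and 132 CPM in the Control iWAT libraries and 117, 83.1, 79.6, 90.6 and 72.3 CPM in the Ai-α4KO ones, with overlap between the groups. Acaa1a in BAT was 165, 98.7, 146, 149 and 163 CPM in Control and 91.0, 93.5, 79.5, 80.7 and 95.0 CPM in Ai-α4KO libraries, without overlap. Acaa1a was called in neither tissue, its log2 fold changes being -0.42 ± 0.13 (iWAT, adjusted p = 0.0188) and -0.71 ± 0.14 (BAT, adjusted p = 0.00073). Acaa1b was 12.7, 12.6, 16.4, 26.3 and 36 CPM in the Control iWAT libraries and 12.1, 5.65, 6.52, 12.1 and 11.5 CPM in the Ai-α4KO ones. Acaa1b in BAT was 20.3, 12.3, 28.3, 20.3 and 26.6 CPM in Control and 24.9, 29.4, 16.5, 25.6 and 41.7 CPM in Ai-α4KO libraries. Acaa1b was the peroxisomal enzyme whose estimates pointed in opposite directions, -1.02 ± 0.33 (iWAT, adjusted p = 0.0223) and 0.36 ± 0.25 (BAT, adjusted p = 0.229), with separated groups in iWAT and overlapping groups in BAT. Neither value was called by edgeR, and the interaction of 1.42 ± 0.44 had an adjusted p of 0.0363, while DESeq2 called both the interaction and the fall in iWAT (-1.05, adjusted p = 0.00383). The log2 ratio of Acaa1a to Acaa1b FPKM was 2.66 ± 0.69 in Control and 3.19 ± 0.50 in Ai-α4KO iWAT (exact p = 0.21, 0.25 after adjustment). The same ratio in BAT stood at 2.70 ± 0.28 in Control and 1.66 ± 0.39 in Ai-α4KO BAT (exact p = 0.0079, 0.016 after adjustment). Scp2, whose longer product is the thiolase for branched chains, fell in both tissues, with log2 fold changes of -1.29 and -1.21.

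Cat encodes catalase, which removes the hydrogen peroxide made by the oxidases. Cat was 1076, 1189.9, 1509, 1213 and 1535 CPM in the Control iWAT libraries and 554, 425, 391, 598 and 519 CPM in the Ai-α4KO ones. Cat in BAT was 913, 1233, 1085, 964 and 904 CPM in Control and 637, 422, 435, 388 and 382 CPM in Ai-α4KO libraries. The groups separated, Ai-α4KO BAT replicate 1 being the highest of its group, and Cat fell with log2 fold changes of -1.29 ± 0.15 (iWAT, adjusted p = 3.04e-05) and -1.17 ± 0.16 (BAT, adjusted p = 5.65e-05). In BAT the calls of Cat and Scp2 were lost with library size alone (-0.89 and -0.95) and with limma on FPKM (-0.91 and -0.94). Phyh, which starts the alpha-oxidation of phytanic acid, fell with -1.63 and -1.72, and Pecr, an enoyl-CoA reductase, with -1.27 and -1.38.

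Decr2, the peroxisomal dienoyl-CoA reductase, was the only one of the 47 genes whose change differed between tissues by edgeR's interaction test, for which 4.86% of the 15230 genes tested were called, 1.60% with a negative and 3.26% with a positive estimate. Decr2 was 28.7, 34.4, 39.1, 35.0 and 38.0 CPM in the Control iWAT libraries and 21.5, 17.5, 20.6, 20.6 and 22.3 CPM in the Ai-α4KO ones. Decr2 in BAT was 65.9, 76.8, 74.6, 69.0 and 92.1 CPM in Control and 23.8, 18.5, 23.4, 24.7 and 35.7 CPM in Ai-α4KO libraries. Both tissues separated the genotypes, but the fall was under 2-fold in iWAT and larger in BAT (log2 fold changes -0.67 ± 0.10 (iWAT, adjusted p = 0.000225) and -1.58 ± 0.17 (BAT, adjusted p = 7.74e-06)). The interaction was -0.88 ± 0.20 with an adjusted p of 0.00648, and 18 of the 47 interactions had an unadjusted p under 0.05, 15 negative and 3 positive, where 2058 negative and 2660 positive estimates of the 15230 had one. The Decr2 call was lost when any of 15 of the 20 libraries was left out, namely any Ai-α4KO iWAT library, Control iWAT replicates 1, 2 and 4, Control BAT replicates 2, 3 and 5 or Ai-α4KO BAT replicates 1 to 4, the leave-one-out values running from -0.93 to -0.68 with adjusted p from 0.00202 to 0.029. It was also lost with upper-quartile scaling (-0.79, edgeR adjusted p = 0.0122). DESeq2 called 3 interactions, adding Acaa2 and Acaa1b.

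Peroxins had the class medians nearest to 0. The import receptors are Pex5, which binds the common carboxy-terminal signal of peroxisomal enzymes, and Pex7, which binds the rarer amino-terminal signal. Pex5 was 154, 102, 125, 95.2 and 109.9 CPM in the Control iWAT libraries and 55.8, 48.3, 52.1, 54.7 and 52.4 CPM in the Ai-α4KO ones. Pex5 in BAT was 176, 150.0, 140.2, 119 and 129 CPM in Control and 64.9, 56.7, 57.2, 54.2 and 64.8 CPM in Ai-α4KO libraries. Pex5 fell with log2 fold changes of -1.05 ± 0.13 (iWAT, adjusted p = 6.18e-05) and -1.25 ± 0.12 (BAT, adjusted p = 3.04e-06), and without Control iWAT replicate 1, its highest library, the iWAT value was -0.99, just inside 2-fold. Pex7 was 35.3, 42.4, 45.4, 41.2 and 38.8 CPM in the Control iWAT libraries and 28.2, 25.8, 26.8, 26.2 and 26.8 CPM in the Ai-α4KO ones. Pex7 in BAT was 74.8, 77.5, 81.2, 71.1 and 62.1 CPM in Control and 34.5, 31.2, 37.5, 49.0 and 42.3 CPM in Ai-α4KO libraries. The Pex7 groups were apart in both tissues with changes under 2-fold, -0.50 ± 0.08 (iWAT, adjusted p = 0.000414) and -0.90 ± 0.14 (BAT, adjusted p = 0.000135), and the BAT value became a call with the skeletal muscle score as a covariate (-1.06). The log2 ratio of Pex5 to Pex7 FPKM was 0.72 ± 0.36 in Control and 0.18 ± 0.06 in Ai-α4KO iWAT (exact p = 0.0079, 0.016 after adjustment). The same ratio in BAT stood at 0.16 ± 0.20 in Control and -0.16 ± 0.30 in Ai-α4KO BAT (exact p = 0.071, 0.095 after adjustment).

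Pex13 and Pex14 form the docking site for those receptors, and neither reached 2-fold, with log2 fold changes of -0.58 and -0.58 for Pex13 and -0.76 and -0.94 for Pex14. Without the iWAT libraries highest in skeletal muscle markers Pex14 was called lower in iWAT (-1.03, edgeR adjusted p = 0.000277). Pex2 and Pex10 belong to the ubiquitin ligase that releases receptors. Pex2 had the smallest change of the peroxins in both tissues. It was 34.7, 54.5, 56.0, 56.6 and 44.9 CPM in the Control iWAT libraries and 37.9, 49.5, 51.2, 44.8 and 50.3 CPM in the Ai-α4KO ones. Pex2 in BAT was 102, 113, 95.3, 88.7 and 81.8 CPM in Control and 56.2, 51.8, 80.1, 70.3 and 78.9 CPM in Ai-α4KO libraries. The Ai-α4KO iWAT libraries lay within the range of Control for Pex2 (log2 fold change 0.03 ± 0.15, adjusted p = 0.885), with an estimate whose sign depended on the normalization and on single libraries. Its log2 fold change in BAT was -0.50 ± 0.15 (adjusted p = 0.0128). Pex10 fell in BAT (-1.19 ± 0.16) and was -0.86 ± 0.18 in iWAT, not past 2-fold. Without the Control iWAT libraries highest in B cell markers Pex10 was called lower in iWAT too (-1.03, edgeR adjusted p = 0.00278).

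Pex6 is an ATPase that pulls receptors back to the cytosol, anchored to the membrane by Pex26. Pex6 was 97.6, 82.8, 112, 61.1 and 75.3 CPM in the Control iWAT libraries and 46.4, 26.5, 24.8, 30 and 26.8 CPM in the Ai-α4KO ones. Pex6 in BAT was 160.3, 88.0, 181, 218 and 153 CPM in Control and 43.7, 44.4, 32.3, 38.5 and 36.4 CPM in Ai-α4KO libraries. It was the peroxin with the largest fall in each tissue, -1.38 ± 0.20 (iWAT, adjusted p = 0.000166) and -2.03 ± 0.20 (BAT, adjusted p = 4.29e-06), and its groups did not overlap. Pex26 was -0.62 in iWAT, not called, and fell with -1.11 in BAT, a call lost with library size alone (-0.85) and with limma on log2(FPKM + 1) (-0.53) or log2(FPKM + 0.1) (-0.78). Pex11a, which promotes elongation and proliferation of peroxisomes, was 23.2, 29.1, 23.7, 17.7 and 25.1 CPM in the Control iWAT libraries and 10.8, 10.4, 6.91, 9.17 and 6.39 CPM in the Ai-α4KO ones. Pex11a in BAT was 26.7, 27.6, 30.4, 28.8 and 31 CPM in Control and 15.8, 9.88, 6.55, 9.37 and 6.40 CPM in Ai-α4KO libraries. All Ai-α4KO libraries were below Control in both tissues, and Pex11a fell with log2 fold changes of -1.34 ± 0.18 (iWAT, adjusted p = 9.21e-05) and -1.58 ± 0.22 (BAT, adjusted p = 5.27e-05).

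Pex3, Pex16 and Pex19 insert proteins into the peroxisomal membrane. Pex3 fell by a log2 fold change of -1.14 ± 0.11 in BAT. In iWAT its value of -1.0 ± 0.17 lay on the 2-fold limit, and the call was lost when any of Control iWAT replicates 3, 4 or 5 or Ai-α4KO iWAT replicates 1, 2 or 3 was left out, with values from -1.19 to -0.93 over all libraries left out. Pex16 and Pex19 fell in iWAT, -1.28 ± 0.18 and -1.23 ± 0.13, and were -0.81 ± 0.11 and -0.95 ± 0.11 in BAT, under 2-fold, though Pex19 was called lower there with the skeletal muscle score as a covariate (-1.12). In BAT the calls of Pex3, Pex5 and Pex10 were lost with library size alone (-0.88, -0.99 and -0.93) and with limma on log2(FPKM + 1) (-0.85, -0.94 and -0.81) or log2(FPKM + 0.1). In iWAT those of Pex3 and Pex5 were lost under the same settings (-0.87 and -0.94 with library size alone). The interactions of Pex16 and Pex19 did not pass (adjusted p = 0.115 and 0.21).

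**Figure D3:**
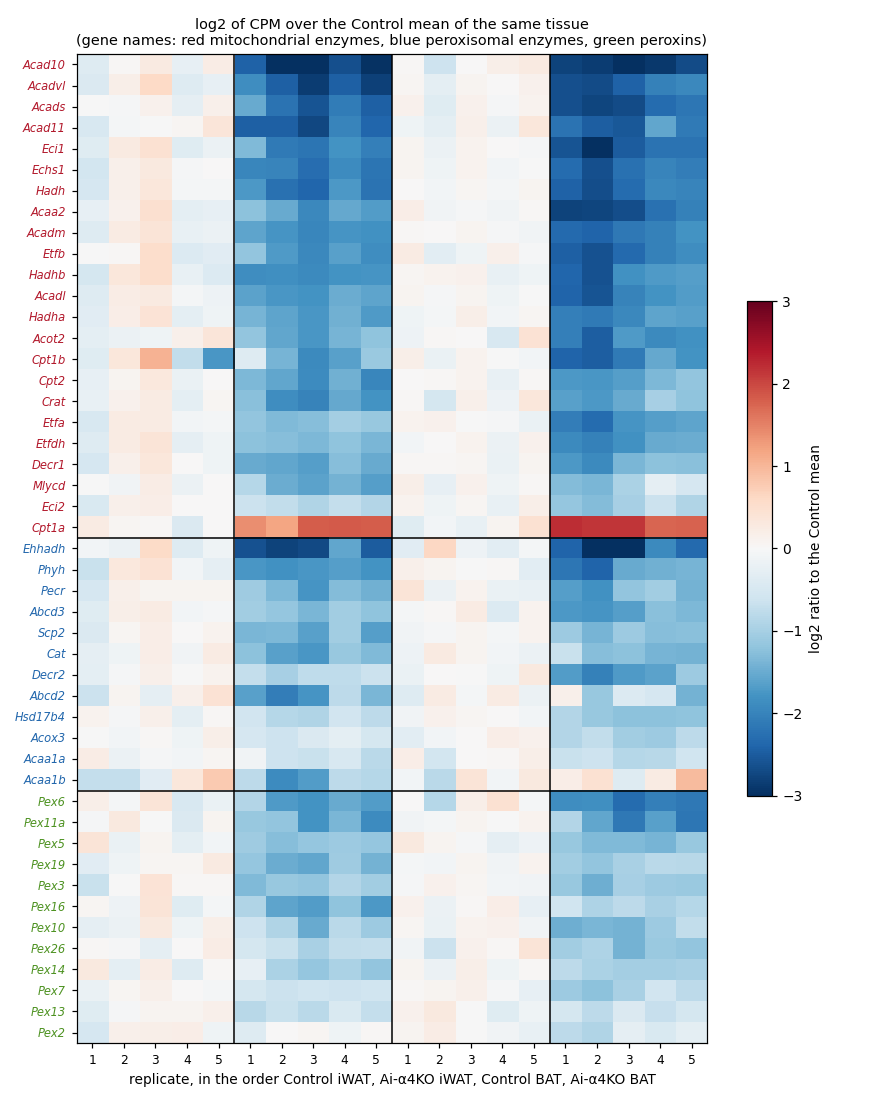
Log2 of CPM in each of the 20 libraries over the Control mean of the same tissue, for the 47 genes (rows, by class and ordered by change; blue lower, red higher). The Ai-α4KO columns are blue for nearly all mitochondrial enzymes and paler for peroxins, Cpt1a is red, and Control iWAT replicates differ among themselves, Cpt1b most.

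The fall was set beside that of the adipocytes' own markers. Each gene's log2 CPM was expressed relative to the mean of 12 adipocyte markers in the same library and tested with limma. On that scale the median of all genes moved to 1.71 in iWAT and 1.43 in BAT, with 75.9% and 68.1% of genes called higher and 0.671% and 1.10% called lower. The medians of the 47 genes were 0.40 in iWAT and -0.05 in BAT, so they lay near the adipocyte markers and below the typical gene. In iWAT limma, the tool used for this scale, called 10 of the 47 higher and 0 lower, with 4 lower at an unadjusted p under 0.05, a level that 212 of the 14604 genes reached in that direction. In BAT 2 were called higher and 5 lower. Of the genes with a log2 fold change below 0 before this step, 37 were above 0 relative to the markers in iWAT and 20 in BAT. The step moves all genes of a library alike, so these counts reflect the size of that shift. Over all genes tested, 13977 of 14604 in iWAT and 13363 of 14344 in BAT lay above 0 after it.

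Cpt1a was called higher on this scale in both tissues, with log2 fold changes of 3.43 ± 0.27 and 3.50 ± 0.24 (limma, adjusted p = 1.86e-08 and 1.33e-11). The other genes called higher in iWAT were Eci2, Acox3, Hsd17b4, Acaa1a, Decr2, Pex2, Pex7, Pex13 and Pex26, all of which had changed by less than 2-fold before the step, and in BAT Acaa1b (1.82 ± 0.32). The genes called lower in BAT were Acad10 (-1.52 ± 0.30), Ehhadh (-1.11 ± 0.33), Eci1 (-1.03 ± 0.28), Acads (-1.02 ± 0.28) and Acaa2 (-1.01 ± 0.34). The 12 markers themselves ran in BAT from -2.59 (Pnpla2) to 0.53 (Retn, not called), with a mean of -1.44. Before the step Acad10 (-2.96) lay below all of these markers. Ehhadh, Eci1, Acads and Acaa2 (-2.53, -2.47, -2.48 and -2.45) lay within their range. How the calls depend on the choice of markers was not tested. Acad10, Ehhadh and Acadvl had the lowest values in iWAT, -0.99 ± 0.23, -0.59 ± 0.27 and -0.63 ± 0.26, none of them called at 2-fold. The median relative change in iWAT was 0.17 for mitochondrial enzymes, 0.54 for peroxisomal enzymes and 0.78 for peroxins. In BAT, in the same order, it was -0.58, 0.27 and 0.45. The step subtracts the same value from every gene of a library, so the order of the classes was carried over and is no separate result. The calls in BAT depended on the libraries, as leaving out one at a time gave 1 to 6 genes called lower and 2 to 4 called higher, with Acad10 the gene kept lower throughout. In iWAT the calls of Eci2, Hsd17b4 and Decr2 were lost in 5, 3 and 3 of the 10 fits with a library left out, with values from 0.95 to 1.14, 0.98 to 1.15 and 0.92 to 1.13.

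**Figure D4:**
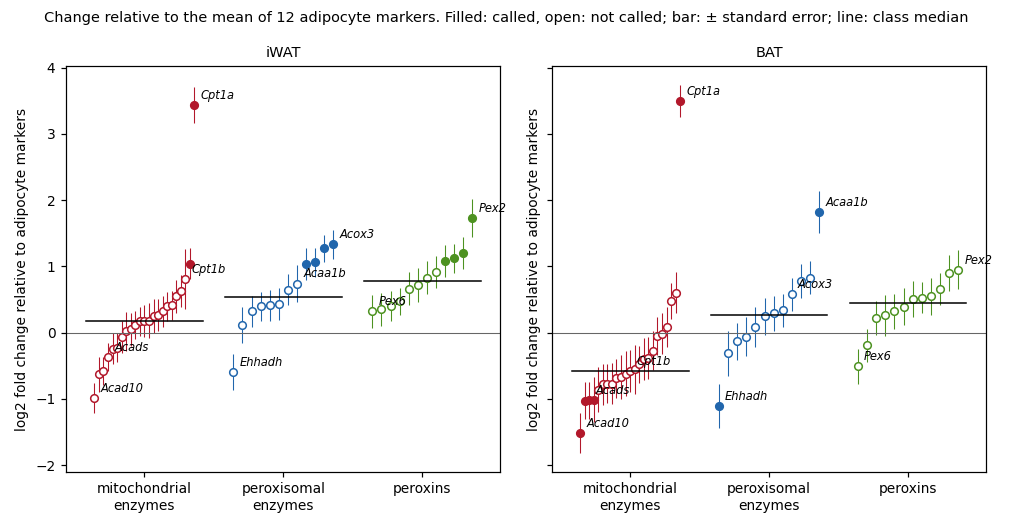
Log2 fold change relative to the mean of 12 adipocyte markers, by class and tissue, with standard errors as bars, filled points for called genes and black lines for class medians. Cpt1a stands at 3.43 in iWAT and 3.50 in BAT, the mitochondrial median is 0.17 in iWAT and -0.58 in BAT, and the peroxin medians are 0.78 and 0.45.

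Comparing Control BAT with Control iWAT asked how much of the machinery each fat held without the knockout. Control BAT held more RNA than Control iWAT for 20 of the 47 genes and less for 2, against 7.22% and 14.7% of the 14260 genes tested. Of the 20, 17 were mitochondrial enzymes and 3 peroxisomal, namely Phyh, Abcd3 and Decr2, and the largest peroxin difference was that of Pex2 (0.92 ± 0.14), under 2-fold. The median log2 difference was 1.46 for mitochondrial enzymes, 0.26 for peroxisomal enzymes and 0.25 for peroxins, beside -0.01 over all genes. The call of Acot2 was lost without Control BAT replicate 5 (0.98). The genes higher in BAT numbered 18 with upper-quartile scaling (without Acot2, 0.99, and Decr2, 0.98), 16 with library size alone (without Echs1, Decr1, Acot2 and Decr2) and 15 with limma on log2(FPKM + 1) (without those and Acad10). The Control libraries of the depots separated with BAT higher for 30 genes, against 18.4% of all genes, and with BAT lower for 3, against 19.1%.

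Cpt1b had the largest difference, 4.27 ± 0.46 on the log2 scale (edgeR, adjusted p = 2.83e-05), and Acaa2 the next, 3.11 ± 0.18. The genes lower in BAT were Cpt1a (-1.44 ± 0.17) and Abcd2 (-1.69 ± 0.20). Cat, Scp2, Pex5 and Pex11a were not called, with log2 differences of -0.39, -0.02, 0.24 and 0.24. These Control libraries are also the reference of the genotype comparisons, so the depot and genotype fold changes are not independent.

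Per transcript length, the highest levels in Control BAT were those of Hadhb (2209.7 ± 189 FPKM, mean ± SD, n = 5), Acaa2 (1932 ± 189 FPKM) and Acadm (1477 ± 52.3 FPKM). In Control iWAT Etfb (528 ± 115 FPKM), Hadhb (522 ± 143 FPKM) and Acadm (501 ± 91.2 FPKM) led their class and did not differ beyond their spread. Scp2 (509 ± 58.0 FPKM) and Cat (446 ± 48.2 FPKM) led the peroxisomal enzymes in Control iWAT, and Phyh (667 ± 78.4 FPKM) in Control BAT. Pex19, a membrane protein chaperone, was the highest peroxin in all 4 groups, with 94.1 ± 12.8 FPKM in Control iWAT and 80.5 ± 5.14 FPKM in Control BAT, and Pex26 the lowest, with 2.39 ± 0.378 and 2.46 ± 0.622 FPKM. In Ai-α4KO BAT Hadhb was still the highest of the mitochondrial enzymes, at 674 ± 169.7 FPKM.

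**Figure D5:**
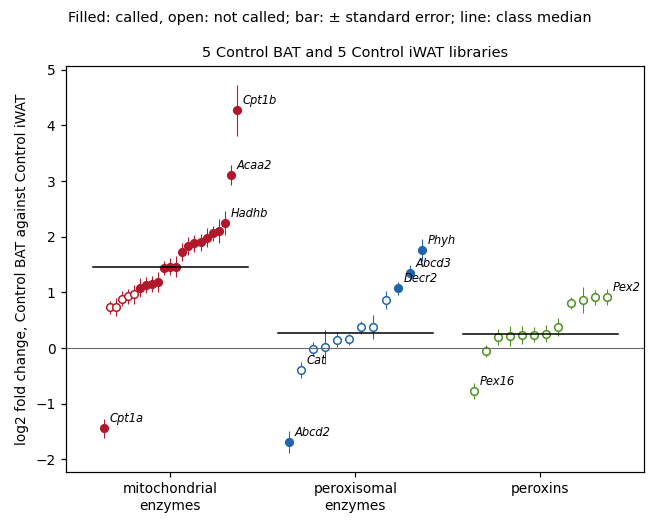
Log2 fold change of Control BAT against Control iWAT for the 47 genes by class, with standard errors as bars, filled points for called genes and black lines for class medians. Mitochondrial enzymes lie above 0 with a median of 1.46 except Cpt1a (-1.44), and Abcd2 (-1.69) is the lowest peroxisomal enzyme.

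Other genes of the pathway were counted in lists of 61 genes, to be read against the 10.7% (iWAT) and 13.3% (BAT) of all genes called lower and the 11.3% and 18.2% called higher. Of 16 further mitochondrial genes of acyl-CoA and ketone metabolism, 7 fell in iWAT and 10 fell in BAT, where Bdh1, a ketone body dehydrogenase, rose (2.81 ± 0.43, adjusted p = 0.000119). The largest falls there were those of Acad12 in iWAT (-2.19 ± 0.23) and Ech1, a dienoyl-CoA isomerase, in BAT (-2.19 ± 0.18). Of 29 further peroxisomal genes, 25 (iWAT) and 24 (BAT) were tested, 11 falling and 1 rising in each. Slc27a2, a very long-chain acyl-CoA synthetase, fell most (-5.09 ± 0.63 in iWAT and -2.94 ± 0.25 in BAT). Far1, which makes fatty alcohols for ether lipids, was the one that rose (1.20 ± 0.15 and 1.30 ± 0.16). Of 8 further peroxins and division factors, 1 fell in each tissue, Pex11g (-1.13 ± 0.20 and -1.13 ± 0.14), a share near that of all genes.

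Among 8 regulators of these genes, 6 fell in iWAT and 4 in BAT, against 10.7% and 13.3% of all genes. Ppara, the nuclear receptor that activates fatty acid oxidation genes, fell most in iWAT (-2.77 ± 0.26) and was -2.55 ± 0.28 in BAT. Ppargc1b, a coactivator of mitochondrial genes, fell most in BAT (-2.75 ± 0.27). By the interaction test 3 of the 57 other genes tested differed between tissues, a share near the 4.86% over all genes, Acss1, Prdx5 and Ppargc1a, the last being -2.0 ± 0.23 in iWAT and -0.15 ± 0.26 in BAT. Pparg and Ppargc1a are in the regulator list and also among the adipocyte and brown adipocyte markers. The genes of the interaction test are named after their values were seen.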

How the data were processed

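The authors prepared stranded mRNA libraries (RNA taken with Trizol per the labels, from a Qiazol homogenate per the study's methods) and deposited a table of expected counts and FPKM values per gene, the latter scaled to transcript length and depth. STAR 2.5.3a, bcl2fastq 2 and the build mm10 come from the submitters' processing notes, and the counting tool and annotation are not given in the sources used here. Of the nonzero expected counts, 76.6% were exactly whole as deposited, with no tolerance. 0 columns of other samples were in the table.

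Expected counts were rounded and fitted in R 4.3.3 with edgeR 4.0.16 (filterByExpr, TMM, glmQLFit, Benjamini-Hochberg over all genes tested), each tissue on its own, and all 20 libraries for the interaction of genotype and tissue. A call needed a 2-fold change and an adjusted p under 0.01, and the interaction the adjusted p alone. Log2 fold changes are given ± the standard error. CPM are TMM-scaled over all 20 libraries and compare a gene between libraries, and FPKM compares genes. For changes relative to adipocyte markers, limma 3.58.1 with trend was run on log2 CPM (prior count 2) minus the mean log2 CPM of 12 markers. Ratios of FPKM were compared by two-sided exact permutation tests (SciPy 1.17.1). The genotype fits with edgeR, DESeq2 and limma on log2 CPM, and the edgeR interaction and depot fits, were tested on simulated counts with 200 changed genes.

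The 47 genes, the other gene lists and the markers were chosen with earlier results of these data known, so no test was made on a list and no p was adjusted over one. Values per library are given for the largest and smallest change of each class and tissue, each gene that rose or whose interaction was called, and paired or successive enzymes and receptors. The other pathway lists are given as counts with the called gene of largest change in each direction. Promoters are RefSeq's, GRCm38.p6, matched by symbol, and the starts of the genes shown equal those in the deposited table. Alternatives were DESeq2 1.42.0, 2 other normalizations, other filters, an adjusted p of 0.05, limma on log2 FPKM with a pseudocount of 1 or of 0.1, a fit of all libraries, a replicate block, a skeletal muscle score and each library left out. Sets of libraries left out for their B cell or muscle markers were chosen after seeing the data. In BAT the skeletal muscle markers separated by genotype, so fits with that score cannot tell muscle content from genotype there.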

Additional observations from a re-analysis of the deposited data

Results flagged for a closer look

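Of 188 combinations of a gene and a group, 12 held a library farther from the rest than Dixon's limit for 5 samples (a gap of more than 0.71 of the range), and chance flags about 1 in 20 groups. Ai-α4KO iWAT replicate 1 was the highest of its group for Mlycd (30.7 CPM, the next 20.5), Pex6 (46.4 CPM, the next 30) and Pex14 (42.4 CPM, the next 26.1). That library was high in skeletal muscle markers (6026 CPM) and, with replicate 4, in adipocyte markers (18264 and 18537 CPM). Ehhadh had a lone high library in 3 groups, Control iWAT replicate 3 (168 CPM, the next 106), Ai-α4KO iWAT replicate 4 (38.0 CPM, the next 19.8) and Control BAT replicate 2 (229.6 CPM, the next 144). Ai-α4KO BAT replicate 1 was highest for Hsd17b4 (262 CPM, the next 219) and Cat (637 CPM, the next 435). A low library stood apart for Acad10 in Ai-α4KO BAT replicate 3 (4.83 CPM, the next 10.2), Decr1 in Control BAT replicate 4 (1334 CPM, the next 1566), Acaa1a in Control BAT replicate 2 (98.7 CPM, the next 146) and Pecr in Control iWAT replicate 1 (13.5 CPM, the next 20.2).

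The fall of Decr2 differed between tissues by -0.88 on the log2 scale (BAT minus iWAT) in edgeR's interaction test, a call lost in 15 of the 20 fits with a library left out and with upper-quartile scaling (-0.79, adjusted p = 0.0122).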

How the results depend on the processing

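Cpt1a was called higher in both tissues under every alternative tried. Counts of genes that fell ranged from 28 to 34 in iWAT and 27 to 38 in BAT over the other normalizations, filters, tools and covariates, apart from the change relative to adipocyte markers, on which limma called 0 lower and 10 higher in iWAT (4 lower at an unadjusted p under 0.05, as were 212 of 14604 genes) and 5 lower and 2 higher in BAT. With library size alone the median of all genes moved to 0.13 in iWAT, 0.23 in BAT and -0.20 between depots, and with limma on FPKM in BAT to 0.15 (pseudocount 1) and 0.21 (0.1). The class medians in iWAT were -0.96 for peroxisomal enzymes and -0.71 for peroxins with limma on log2(FPKM + 1), and 0.17, 0.54 and 0.78 for mitochondrial enzymes, peroxisomal enzymes and peroxins relative to the markers. In BAT, in the same order, they were -1.76, -0.92 and -0.77 with library size alone, -1.77, -0.93 and -0.66 with log2(FPKM + 1), -1.78, -0.93 and -0.73 with log2(FPKM + 0.1), and -0.58, 0.27 and 0.45 relative to the markers, and the mitochondrial median was -2.22 with the skeletal muscle score. Without the Control iWAT libraries highest in B cell markers, an alternative chosen after seeing the data, the peroxisomal median in iWAT was -1.34. The interaction had 0 genes called lower with upper-quartile scaling, where Decr2 was -0.79 (adjusted p = 0.0122), and 2 lower and 1 higher with DESeq2. Pex2 in iWAT, 0.03 and not called, was -0.00 with DESeq2, -0.07 with upper-quartile scaling, -0.11 without the B cell libraries, and from -0.13 to 0.11 with 1 library left out, being -0.13, -0.01 and -0.01 without Control replicate 1, Control replicate 5 or Ai-α4KO replicate 3. The cause of these shifts was not tested.

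Leaving out 1 library at a time gave 32 to 33 genes lower and 1 higher in iWAT, 34 to 35 lower and 1 higher in BAT, 0 to 2 lower and 0 higher in the interaction, and 20 to 22 higher and 2 lower in Control BAT against Control iWAT. Relative to the markers it gave 0 to 1 lower and 7 to 11 higher in iWAT and 1 to 6 lower and 2 to 4 higher in BAT. Medians ran from -1.63 to -1.47 (mitochondrial), -1.31 to -1.09 (peroxisomal) and -0.98 to -0.86 (peroxins) in iWAT and from -2.07 to -1.90, -1.27 to -1.11 and -1.06 to -0.99 in BAT.

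The shared replicate numbers did not pair the libraries, the correlations of their deviations running from -0.396 to 0.119 in iWAT, -0.193 to 0.258 in BAT, and between tissues from -0.13 to 0.334 in Control and -0.197 to 0.213 in Ai-α4KO libraries. With the replicate number as a block 32 genes fell in iWAT and 35 in BAT, Pex3 being lost in iWAT (-0.96) and Eci2 gained in BAT (-1.0).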

Other observations

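The 5 Control iWAT libraries differed among themselves in this machinery more than the Control BAT libraries did. The summed level of the 23 mitochondrial enzymes was 7999, 11815, 13603, 9131 and 9439 CPM in Control iWAT replicates 1 to 5, and 39993, 36562, 40385, 35953 and 38375 CPM in Control BAT. The 12 peroxins summed to 1024, 1063, 1268, 1069 and 1192 CPM in Control iWAT and to 1398, 1319, 1404, 1299 and 1292 CPM in Control BAT. Brown adipocyte markers, summed over 5 genes, were 430.4, 615, 824, 138 and 91.4 CPM in the same Control iWAT libraries. Replicate 3 was the highest for the mitochondrial enzymes and these markers, and also for the peroxins and the adipocyte markers (47609 CPM). Replicate 1 was the lowest for the mitochondrial enzymes, although replicates 4 and 5 held less of the brown adipocyte markers. How these levels are related was not tested.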
